A study of Mus musculus with 4 samples.

Results

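The 8 genes described here encode receptors for the Fc part of antibodies (Fcgr1, Fcgr3 and Fcgr2b), the lipid and lipoprotein receptor Trem2, the adaptor chains Fcer1g and Tyrobp, and the tyrosine kinases Lyn and Syk. They were taken by name and are 8 of 35498 genes, with 32 of 115977 matched transcripts, in RNA pulled down with tagged ribosomes from mouse hippocampus. The mice were C57BL/6J animals aged 4 months of the line P2RY12CreER x Rpl22HA, in which a Cre under the microglial gene P2ry12 switches on a tagged form of the ribosomal protein Rpl22. All mice underwent fear conditioning, a training that pairs a place or cue with a shock. Sleep-deprived mice were then kept awake for 6 h, and control mice were allowed to sleep for 6 h. The comparison asks how messages recovered from microglia differ after sleep loss that follows learning. Each group had 2 deposited samples, each pooled from 2 mice and described as technical replicates. The treatment field of the labels reads sleep deprivation for all 4 samples, so the groups follow the sample titles.

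The files held 14473030 and 14431647 estimated reads for sleep-deprived mice, and 14877011 and 14833320 for control mice. Within a group the files were closer than sampling noise allows, with a chi-square per degree of freedom of 0.212 for the sleep-deprived pair and 0.335 for the control pair. Across the groups it was 73.7 to 73.8. Each pair was therefore counted as 1 library, which leaves n = 1 per group, no replicate check and no p-value. Ratios are given with 95% intervals that cover counting error only and say nothing about the spread between mice. A gene is called higher or lower where the ratio of sleep-deprived to control was at least 2-fold and the interval excluded 1.

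These genes form a relay at the cell surface. An activating Fc receptor binds antibody and has no signalling motif of its own, and it signals through Fcer1g; Trem2 binds lipids, lipoproteins and cell debris and signals in the same way through Tyrobp. The cytoplasmic tail of each adaptor carries an ITAM, a pair of tyrosines each followed by a leucine or isoleucine, which Src family kinases such as Lyn phosphorylate so that Syk can dock and become active. Fcgr2b carries the opposing motif, an ITIM, which recruits phosphatases. In the brain most of these genes are used mainly by microglia and other macrophages, where they serve uptake of antibody-coated material and debris.

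The motifs that define the relay were read from the GENCODE M21 transcripts on GRCm38. They are shown because they separate the adaptors and the inhibitory receptor from the receptors that need a partner. In the ITAMs the capitals mark the codons of the tyrosines and of the leucines. In the ITIM they mark the codons of the isoleucine, the tyrosine and the leucine. The Fcer1g motif spans 2 exons at chr1:171229889-171230072 on the minus strand and covers residues 65 to 79 of 86. The Tyrobp motif spans 2 exons at chr7:30415670-30417382 on the plus strand and covers residues 92 to 106 of 114. The Fcgr2b motif lies in 1 exon at chr1:170961071-170961088 on the minus strand and covers residues 270 to 275 of 293 in transcript Fcgr2b-202.
Fcer1g ITAM: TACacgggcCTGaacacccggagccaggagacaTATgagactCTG
Tyrobp ITAM: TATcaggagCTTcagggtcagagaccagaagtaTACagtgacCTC
Fcgr2b ITIM: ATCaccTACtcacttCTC
The same ITAM search gave 0 matches in the coding sequences of Fcgr1-201 (404 residues), Fcgr3-201 (267 residues) and Trem2-201 (227 residues).

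Of the 8 genes, 5 were called higher in the sleep-deprived library: Fcgr3, Fcer1g, Tyrobp, Trem2 and Fcgr1. None of the 8 was called lower. By the same rule 4.24% of the 14916 measured genes were called higher and 5.65% lower, 9.9% in either direction. The 8 genes were chosen with earlier results of these data known, so setting them beside all genes is a description. Measured genes are those that passed a minimum of about 10 reads, and all 8 passed it in both libraries, with at least 22 reads in each. The median ratio of the 8 genes was 2.48, a log2 ratio of 1.31, against a median log2 ratio of −0.01 over all measured genes. Their summed level was 84.3 CPM (counts scaled to library size) in the sleep-deprived library and 43.2 CPM in the control library, a ratio of 1.95 (1.77 to 2.15).

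**Figure D1:**
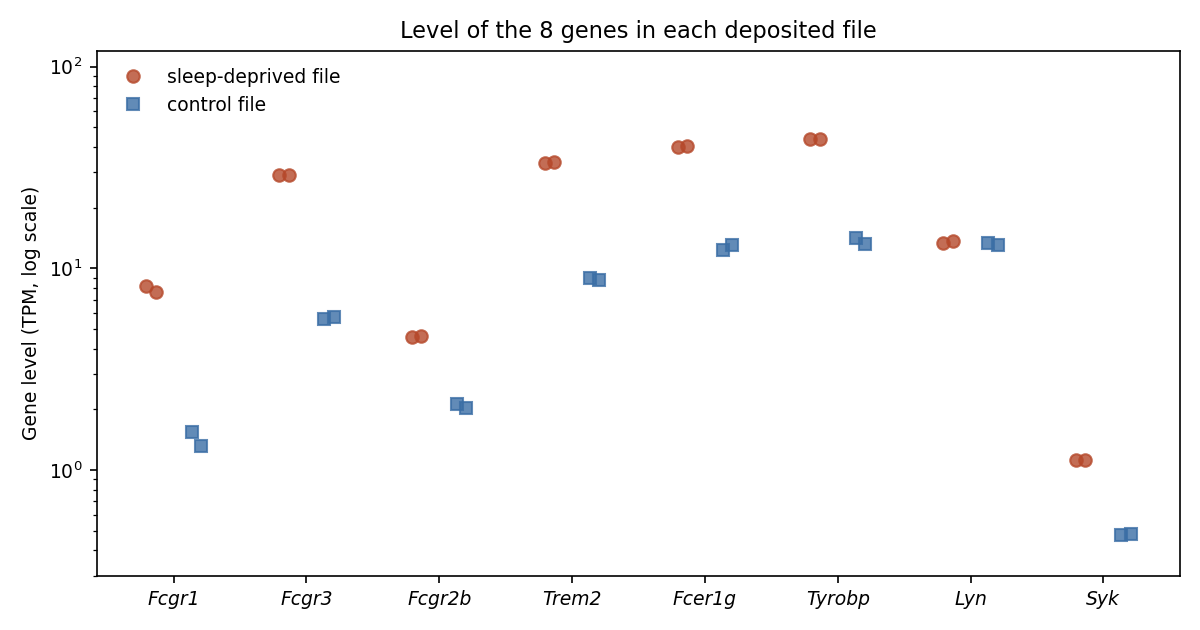
Level of each of the 8 genes in each of the 4 files, in TPM on a log axis. Circles are sleep-deprived files and squares are control files. The sleep-deprived files lie above the control files for 7 genes by more than the gap between files of a group, while Lyn lies between 13 and 13.8 TPM in all 4 files.

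Levels of different genes were compared as TPM, the deposited abundance that takes transcript length into account. In the sleep-deprived library the order was Tyrobp, Fcer1g, Trem2, Fcgr3, Lyn, Fcgr1, Fcgr2b and Syk, between 43.9 and 1.12 TPM, with no overlap between neighbours across the files. In the control library the order was Tyrobp, Lyn, Fcer1g, Trem2, Fcgr3, Fcgr2b, Fcgr1 and Syk, between 13.7 and 0.481 TPM. There the file values of Tyrobp and Lyn overlapped, as did those of Lyn and Fcer1g. Lyn therefore stood level with the adaptors in the control library and below both of them, Trem2 and Fcgr3 in the sleep-deprived library. In TPM the median log2 ratio of all genes was 0.22, and TPM ratios are to be read relative to that shift.

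Fcgr3, the low-affinity activating receptor for IgG (chr1:171051174-171064935, minus strand), had 241 and 240 estimated reads in the sleep-deprived files and 58 and 59 in the control files. In TPM this was 29.1 and 29.1 in the sleep-deprived files against 5.62 and 5.75 in the control files. Both sleep-deprived files lay far above both control files. The ratio was 4.35 (3.26 to 5.88), above those of the other 7 genes on TMM-scaled counts. Fcgr3 shares 13.4% of its stretches of 31 bases with Fcgr2b, its neighbour on chromosome 1, so reads in those stretches were divided between the pair by the authors' model.

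Fcgr1, the high-affinity receptor for IgG (chr3:96282909-96293969, minus strand), had 70 and 72 reads in the sleep-deprived files and 34 and 29 in the control files. Its TPM was 8.20 and 7.66 in the sleep-deprived files against 1.54 and 1.32 in the control files. The groups did not overlap in either unit, but the size of the difference depended on the unit. On counts the ratio was 2.36 (1.53 to 3.70), and with an offset for transcript length it was 4.67 (3.04 to 7.33). Behind that gap stands Fcgr1-202, a transcript of 600 bases annotated as nonsense-mediated decay, with 13.2 and 11.0 estimated reads in the sleep-deprived files and 0 in both control files. It took 17.1% of the gene's reads in the sleep-deprived library, and 57.9% of its TPM. Of its 570 stretches of 31 bases, 29 are absent from the main transcript Fcgr1-201, so few reads could tell them apart. Without it, on protein-coding transcripts alone, the ratio of Fcgr1 was 1.99 (1.28 to 3.17) and missed the 2-fold line.

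Fcgr2b, the inhibitory receptor for IgG (chr1:170958617-170976547, minus strand), had 54 and 58 reads in the sleep-deprived files and 33 and 34 in the control files. The groups did not overlap, with a ratio of 1.81 (1.15 to 2.87) that was not called. In TPM the ratio was 2.20 (1.40 to 3.49), past the 2-fold line before the shift of all genes in TPM is taken off. The ratio of the inhibitory receptor was below those of both activating receptors, and its interval overlapped that of Fcgr1 but not that of Fcgr3. The remaining activating IgG receptor of the mouse, Fcgr4, had 4 reads in the sleep-deprived library and 0 in the control library, too few to be measured.

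Fcgr2b is transcribed in forms that differ by an exon of 141 bases in the cytoplasmic tail, at chr1:170963325-170963465. The longer form is known from B cells, where the insert holds the receptor at the cell surface, and the shorter form, which can be internalised, from macrophages. The exon is shown in capitals with its neighbouring bases.
Fcgr2b-201: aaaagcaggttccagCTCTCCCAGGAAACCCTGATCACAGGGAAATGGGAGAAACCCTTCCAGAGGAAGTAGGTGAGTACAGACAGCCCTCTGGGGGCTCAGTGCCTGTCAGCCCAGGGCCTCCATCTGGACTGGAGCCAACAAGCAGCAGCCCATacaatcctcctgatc
The longer Fcgr2b-201 held 17.8 and 23.8 reads in the sleep-deprived files and 13 and 16.6 in the control files. The shorter Fcgr2b-202 held 33.7 and 31.6 reads in the sleep-deprived files and 18.9 and 16.3 in the control files. Fcgr2b-201 thus took 37.2% of the gene's reads in the sleep-deprived library and 44.2% in the control library, and the file values of the groups overlapped, from 33% to 41% and from 39.3% to 48.9%. A shift between the forms was not detectable at this depth. As a share of the gene's TPM, Fcgr2b-201 took 18.29% in the sleep-deprived library and 22.97% in the control library. It has 3544 bases against 1462 in Fcgr2b-202, and 1907 of its 3309 stretches of 31 bases are absent from Fcgr2b-202. The exon of 141 bases accounts for only part of these, so the read share does not give the share of messages with the exon.

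Trem2 (chr17:48346401-48354147, plus strand) had 230 and 231 reads in the sleep-deprived files and 95 and 94 in the control files. Its TPM was 33.2 and 33.9 in the sleep-deprived files against 9 and 8.76 in the control files. Both sleep-deprived files were above both control files, with a ratio of 2.61 (2.05 to 3.36). The gene total hides a difference between its transcripts. The main coding form Trem2-201 held 182 and 194 reads in the sleep-deprived files and 48.3 and 45.5 in the control files, a ratio of 4.26 in CPM. Trem2-203, annotated as a retained intron and not as coding, held 25.6 and 22 reads in the sleep-deprived files and 30.2 and 31.8 in the control files, a ratio of 0.816 in CPM. The coding form accordingly took 81.5% of the gene's reads in the sleep-deprived library and 49.6% in the control library, and the retained intron took 10.3% in the sleep-deprived library and 32.8% in the control library. Of the 4754 stretches of 31 bases in Trem2-203, 79.1% occur in no other transcript of the gene, so this form is well separated from the coding forms. Summed over protein-coding transcripts alone, Trem2 stood at 14.6 CPM in the sleep-deprived library and 4.21 CPM in the control library, a ratio of 3.46. With the libraries also scaled on protein-coding transcripts alone, the ratio was 3.55 (2.67 to 4.79).

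A further coding form, Trem2-202, uses 55 extra bases at chr17:48351691-48351745, shown in capitals. As 55 leaves a remainder of 1 on division by 3, they shift the reading frame, and the encoded protein has 249 residues against 227 from Trem2-201.
Trem2-202: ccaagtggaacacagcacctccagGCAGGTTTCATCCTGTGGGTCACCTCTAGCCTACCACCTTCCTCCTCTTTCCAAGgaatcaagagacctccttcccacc
Trem2-202 held 22.1 and 15.4 reads in the sleep-deprived files and 16.4 and 16.7 in the control files. The groups overlapped in reads, while its share of the gene was 8.12% in the sleep-deprived library and 17.5% in the control library.

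Fcer1g, the adaptor of the activating Fc receptors (chr1:171229572-171234365, minus strand), had 128 and 129 reads in the sleep-deprived files and 49 and 49 in the control files. Its TPM was 39.9 and 40.4 in the sleep-deprived files and 12.3 and 13.1 in the control files. The ratio was 2.78 (1.98 to 3.95). Nearly all of its reads fell on the coding form Fcer1g-201, which carries the ITAM shown above. Tyrobp, the adaptor of Trem2 (chr7:30413760-30417585, plus strand), had 115 and 115 reads in the sleep-deprived files and 46 and 43 in the control files. Its TPM was 43.8 and 44.1 in the sleep-deprived files and 14.1 and 13.2 in the control files. The ratio was 2.78 (1.95 to 4.03), close to that of Fcer1g, and neither gene shares a stretch of 31 bases with another gene. All Tyrobp reads were placed on Tyrobp-202, which also contains the ITAM bases. Tyrobp-201 is listed at 0 in all 4 files, and its stretches of 31 bases all occur in Tyrobp-202, so reads from it could have been placed there. The ratios of Trem2 and of its adaptor Tyrobp had overlapping intervals, as had those of Fcer1g and its receptor Fcgr1. The interval of Fcgr3 overlapped that of Fcer1g as well.

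**Figure D2:**
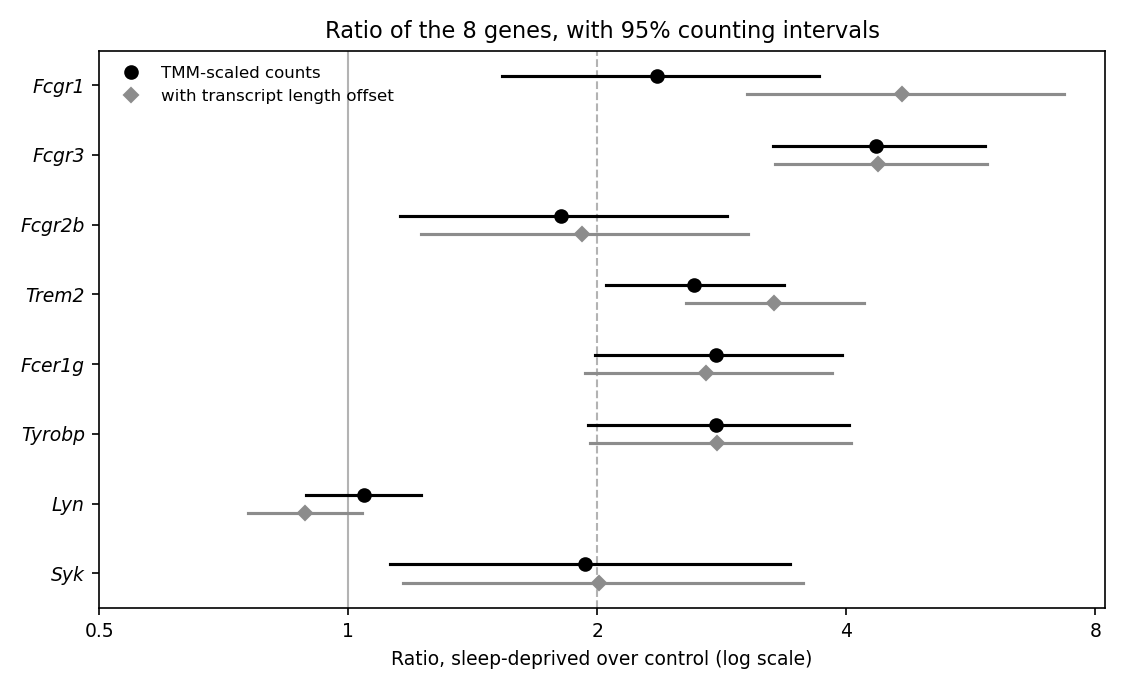
Ratio of the sleep-deprived to the control library for each of the 8 genes on a log axis, with bars for the 95% counting interval; circles are TMM-scaled counts and diamonds include an offset for transcript length. The dashed line marks 2-fold. Fcgr3 has the highest ratio on TMM-scaled counts (4.35), Lyn lies at 1.04 on those counts and at 0.887 with the offset, and Fcgr1 lies at 2.36 on those counts and at 4.67 with the offset.

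Syk, the kinase that docks on phosphorylated ITAMs (chr13:52583173-52648792, plus strand), had 40 and 40 reads in the sleep-deprived files and 22 and 22 in the control files. Its TPM was 1.12 and 1.13 in the sleep-deprived files against 0.480 and 0.482 in the control files. The ratio of 1.93 (1.12 to 3.42) did not reach 2-fold, whereas with the transcript length offset it was 2.01 (1.16 to 3.54) and was called. Syk had the lowest level of the 8 genes in both libraries, and its ratio rests on few reads. Of its reads, 97.2% in the sleep-deprived library and 100% in the control library fell on Syk-201.

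Lyn, the Src family kinase that can phosphorylate both ITAMs and ITIMs (chr4:3678115-3813122, plus strand), was the gene of the 8 whose ratio lay nearest 1. It had 309 and 315 reads in the sleep-deprived files and 320 and 317 in the control files, and 13.4 and 13.8 TPM in the sleep-deprived files against 13.3 and 13 TPM in the control files. The ratio was 1.04 (0.890 to 1.22) on counts and 0.887 (0.756 to 1.04) with the length offset, so its direction is not set. On counts the interval of Lyn did not overlap those of Fcgr1, Fcgr3, Trem2, Fcer1g and Tyrobp, but it overlapped those of Fcgr2b and Syk. A copy of part of Lyn, Gm11787, shares 17.1% of the stretches of 31 bases of Lyn and is listed at 0 reads in all files.

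Although the totals were close, the estimated reads of Lyn were placed on different coding transcripts in the 2 libraries. Lyn-201 and Lyn-202 differ by 63 bases, a whole number of codons, which give proteins of 512 and 491 residues, the long and short forms of the kinase.
Lyn-201 held 307 and 244 estimated reads in the sleep-deprived files and 52.6 and 38.6 in the control files. Lyn-202 held 0 and 68.9 in the sleep-deprived files and 255 and 268 in the control files. The long form thus took 88.2% of the gene's reads in the sleep-deprived library and 14.3% in the control library, and the short form 11.0% in the sleep-deprived library and 82.1% in the control library. The groups did not overlap in either share. The files of the sleep-deprived library, which agree within sampling noise over genes, nevertheless placed 99.2% and 77.4% of Lyn reads on the long form. Only 101 of the 3433 stretches of 31 bases in Lyn-201 are absent from Lyn-202, and 25 of the 3357 in Lyn-202 are absent from Lyn-201, so the division rests on the few reads that reach the junction. How much of the difference comes from that division was not tested.

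**Figure D3:**
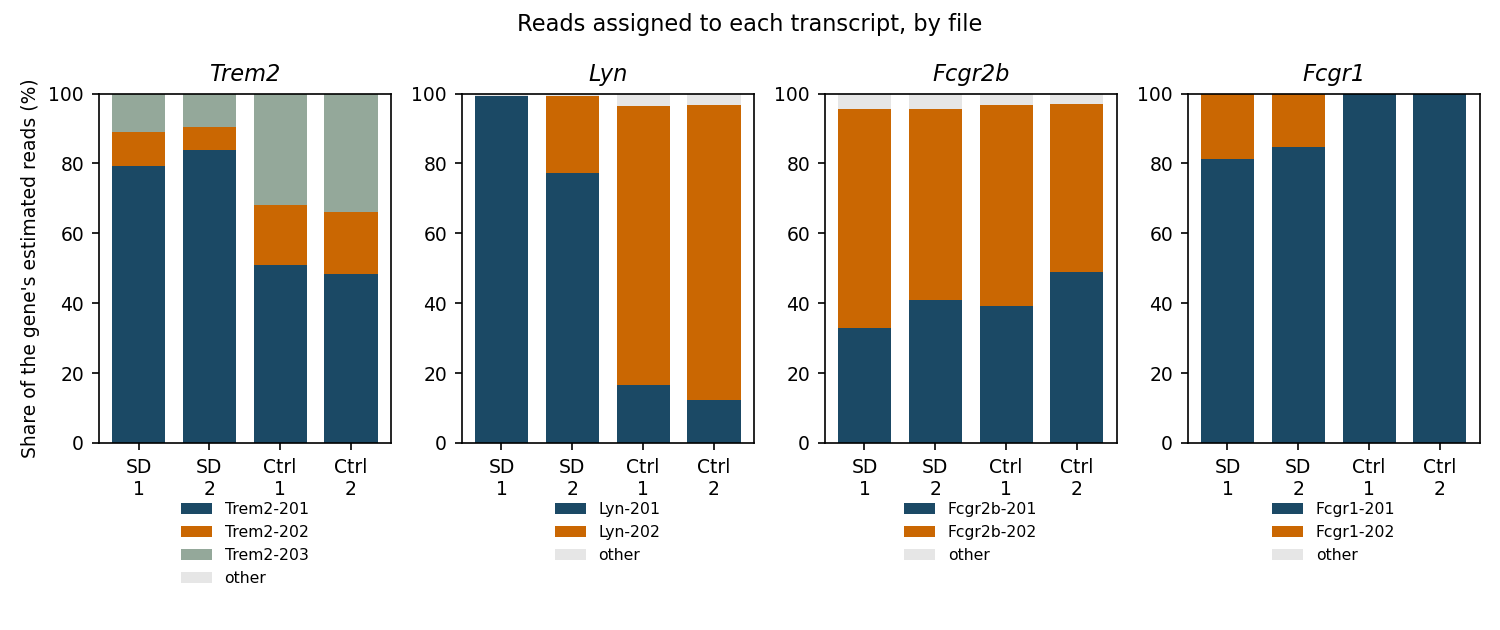
Share of each gene's estimated reads, in percent, placed on each named transcript of Trem2, Lyn, Fcgr2b and Fcgr1; SD 1 and SD 2 are the sleep-deprived files and Ctrl 1 and Ctrl 2 the control files. Lyn-201 takes 99.2% and 77.4% in the sleep-deprived files and 16.4% and 12.2% in the control files, and Trem2-203 takes 11.1% and 9.52% in the sleep-deprived files and 31.8% and 33.8% in the control files.

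Promoters of 6 of the 8 genes were matched in RefSeq on GRCm38.p6, and Lyn and Tyrobp were not. The motif searched was GAGGAA on either strand, the core bound by the macrophage factor PU.1, in the 250 bases before the start. It was found before the first listed start of 3 of 6 genes, Fcgr3, Fcgr1 and Trem2, against 23.3% of 32851 starts over all genes. The 100 bases before each of these starts are printed with the match in capitals, which lies 0, 49 and 34 bases from the start for Fcgr3, Fcgr1 and Trem2 in that order. They are shown as the first listed starts that had a match. Fcer1g, also called higher, had none before its start. A further RefSeq start of Syk, at chr13:52596882 and near the annotated start of Syk-201, which held most of its reads in both libraries, had a match 3 bases away and is not printed, and a further start of Fcgr3 shares the match of the first. A match describes letters and is not a measured binding site, and binding was not measured here. The windows are chr1:171059404-171059503 and chr3:96293970-96294069 on the minus strand and chr17:48346301-48346400 on the plus strand.
Fcgr3 promoter: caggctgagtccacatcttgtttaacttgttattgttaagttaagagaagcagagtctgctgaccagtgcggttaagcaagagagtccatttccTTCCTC
Fcgr1 promoter: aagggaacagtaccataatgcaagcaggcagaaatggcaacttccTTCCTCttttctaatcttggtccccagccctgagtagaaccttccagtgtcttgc
Trem2 promoter: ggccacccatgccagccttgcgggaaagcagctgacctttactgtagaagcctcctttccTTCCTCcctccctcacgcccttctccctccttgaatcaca

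Of 21 microglial identity markers, all measured, 14 were called higher and none lower, with a median ratio of 2.85. Over all measured genes 4.24% were called higher and 5.65% lower. Among the 14, Slc2a5 had 8 reads in the control library and entered through the sleep-deprived library. The summed level of the 21 markers was 1023 CPM in the sleep-deprived library and 533 CPM in the control library, a ratio of 1.92 (1.87 to 1.97). In this RNA from a ribosome pulldown, more cells of a type, more RNA per cell and a different recovery by the pulldown cannot be told apart. Relative to the summed marker list, 1 of the 8 genes, Fcgr3, was called higher, at 2.26, while Fcer1g and Tyrobp stood at 1.45 each, Trem2 at 1.36, Fcgr1 at 1.23, Syk at 1.01, Fcgr2b at 0.940 and Lyn at 0.544. Sparc, a matrix protein gene, held over 50% of the control sum of the list, with 239 CPM in the sleep-deprived library and 298 CPM in the control library. Without Sparc, an alternative chosen after its value was seen, the list summed to 784 CPM in the sleep-deprived library and 234 CPM in the control library, a ratio of 3.35. Relative to that sum Fcgr3 stood at 1.30, Tyrobp and Fcer1g at 0.831 each, Trem2 at 0.781 and Fcgr1 at 0.706. Syk stood at 0.578 and Fcgr2b at 0.540, and Lyn, at 0.312, was called lower. Dividing by either sum shifts all genes by the same factor, and all measured genes had a median ratio of 0.994 before it. The share of all genes called on these scales is not given, so the calls of Fcgr3 and Lyn there are a description. P2ry12, whose promoter drives the Cre, was at 23.2 CPM in the sleep-deprived library and 12 CPM in the control library, a ratio of 1.93 (1.60 to 2.32). Rpl22, whose protein carries the tag, was at 64.1 CPM in the sleep-deprived library and 90.8 CPM in the control library, a ratio of 0.707 (0.649 to 0.769), and with the transcript length offset it was called lower, at 0.475.

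Other cells that use Fc receptors left few reads. Of 11 neutrophil and blood monocyte markers 3 were measured, their sum was 2.26 CPM in the sleep-deprived library and 2.79 CPM in the control library, and the neutrophil genes Camp and Cd177 were at 0 in all files. Single markers of that list, named after their values were seen, went opposite ways. The neutrophil gene Ly6g had 0 reads in both sleep-deprived files and 18 and 19 in the control files, and was called lower. The monocyte gene Ly6c2 had 16 and 14 reads in the sleep-deprived files and 3 and 2 in the control files, and was called higher (5.32, 1.86 to 71.9). Ly6g and Ly6c2 each entered the measured genes through the library where they had more reads. Of 15 B, T and NK cell markers 2 were measured, the sum was 8.26 CPM in the sleep-deprived library and 7.37 CPM in the control library, and Ms4a1, Cd8b1, Ncr1, Klrb1c and Nkg7 were at 0 in all files. Markers of mast cells, basophils and platelets summed to 140 CPM in the sleep-deprived library and 127 CPM in the control library, most of it Kit, which neurons also express, and Cpa3, Mcpt4, Tpsb2, Mcpt8 and Ppbp were at 0 in all files. Border-associated macrophages, which share most of the 8 genes with microglia, had 6 of 9 markers measured and 3 called higher. Of these 3, Lyve1 and Folr2 had fewer than 10 reads in the control library and entered through the sleep-deprived library. The 9 markers summed to 13.7 CPM in the sleep-deprived library and 9.10 CPM in the control library, a ratio of 1.51 (1.20 to 1.89). The part of these macrophages in the results was not tested. The pulldown also held neural RNA. Neuronal markers summed to 3440 CPM in the sleep-deprived library and 3963 CPM in the control library, a ratio of 0.868 (0.858 to 0.879). None of the 10 was called. Astrocyte markers summed to 1260 CPM in the sleep-deprived library and 2099 CPM in the control library, and oligodendrocyte markers to 2268 CPM in the sleep-deprived library and 3640 CPM in the control library. Endothelial markers summed to 304 CPM in the sleep-deprived library and 195 CPM in the control library. Vwf, the clotting factor gene of these cells, named after its value was seen, carried that gap, with 139 CPM in the sleep-deprived library and 25.9 CPM in the control library (5.38, 4.82 to 6.01), while the median ratio of the 10 markers was 0.970. The part of these cells in the ratios was not tested.

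Around the 8 genes, 7 lists held 130 further genes of the pathway, of which 89 were measured. Of these, 19 were called higher and 2 lower, with a median ratio of 1.31. Over all measured genes 4.24% were called higher and 5.65% lower. Those shares are also the background of the list counts below, some of which rest on 1 or 2 genes. Among the pathway genes called higher, Fcrl1, Clec4a2, Dok2 and Ms4a6d had fewer than 10 reads in the control library and entered through the sleep-deprived library. Lilr4b and Anxa1, both lower, entered through the control library. The counts over measured genes are therefore a description.

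Among the other receptors for antibodies and relatives of the Fc receptors, 4 of 12 were measured, 2 were called higher and none lower. The 2 called higher, Fcrls and Fcrl1, are relatives. Fcrls, a microglial relative of the Fc receptors, had 215 and 216 reads in the sleep-deprived files and 35 and 36 in the control files, a ratio of 6.38 (4.47 to 9.36). Fcrl1, known from B cells, had 15 and 15 reads in the sleep-deprived files and 5 and 5 in the control files (3.19, 1.1 to 11.2), and its ratio was 5.41 on protein-coding transcripts alone. The 5.41 has no interval here and may rest on a control library set to 3 reads. Fcgrt, the receptor that recycles IgG inside cells, was at 7.42 CPM in the sleep-deprived library and 7.24 CPM in the control library (1.02, 0.776 to 1.35). The remaining measured gene, Trim21, named after its value was seen, had 20 and 19 reads in the sleep-deprived files and 38 and 39 in the control files. Its ratio was 0.560 (0.309 to 0.987) on counts and 1.23 with the length offset, and it was not called.

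Of 25 other receptors that signal through Tyrobp, Fcer1g or a similar motif, 7 were measured, 3 were called higher and none lower. Clec5a, a lectin that pairs with Tyrobp, had 56 and 56 reads in the sleep-deprived files and 13 and 13 in the control files (4.58, 2.48 to 9.14). Cd300c2 had a ratio of 3.43 (1.99 to 6.18), or 18.7 on protein-coding transcripts alone, and Clec4a2, which in the mouse carries an ITIM and so differs from the list's name, one of 3.37 (1.29 to 10.3). The 18.7 of Cd300c2 has no interval here and may rest on a control library set to 3 reads. Siglech, a sialic acid receptor that pairs with Tyrobp in microglia, was at 13.1 CPM in the sleep-deprived library and 7.97 CPM in the control library (1.65, 1.30 to 2.09) and was not called. Its ratio was 2.47, past 2-fold, on protein-coding transcripts alone. In TPM the ratio of Siglech was 2.01, past 2-fold only before the shift of all genes in TPM is taken off. With the length offset it was 1.72 (1.36 to 2.18) and not called. Siglech-204, annotated as nonsense-mediated decay, held 74.0% of the gene's reads in the sleep-deprived library and 82.4% in the control library. Trem1, the relative of Trem2 on neutrophils and monocytes, had 0 reads in the sleep-deprived library and 2 in the control library, and the fungal receptor Clec7a had 5 in the sleep-deprived library and 6 in the control library. These 2 genes were named after their values were seen. Of 7 other adaptor chains 2 were measured and none called, with Cd247, the zeta chain of T cells, at 1.47 (0.887 to 2.45), and 60.3% of the exon bases of Cd247 lie in Pou2f1.

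Of 11 other Src family kinases and their regulators, 8 were measured and 1 was called higher. This was Ptprc, the phosphatase CD45 that keeps Src kinases ready for use. It was at 5.44 CPM in the sleep-deprived library and 2.46 CPM in the control library (2.21, 1.48 to 3.37). On protein-coding transcripts alone its ratio was 19.8. That value has no interval here and may rest on a control library set to 3 reads. Ptpn22, a phosphatase that acts on Src and Syk family kinases, had 446 CPM in the sleep-deprived library and 266 CPM in the control library (1.68, 1.61 to 1.75). Its ratio was 1.29 with the length offset, 1.51 in TPM and 1.85 on protein-coding transcripts alone, all outside that interval. Further relatives of Lyn, named after their values were seen, lay on both sides of 1. Src had a ratio of 1.31 (1.18 to 1.46), Yes1 one of 0.768 (0.688 to 0.857) and Fyn one of 0.773 (0.712 to 0.840), the last at 0.439 and called lower with the transcript length offset.

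All 34 genes of the Syk pathway list were measured, and 6 were called higher and none lower, with a median ratio of 1.30. They were the exchange factor Vav1 (2.70, 1.72 to 4.34), the scaffold Lcp2, also known as SLP-76 (2.53, 1.38 to 4.85), the PI3-kinase adaptor Pik3ap1 (2.42, 1.36 to 4.48), the PI3-kinase subunits Pik3cg (2.23, 1.28 to 4.02) and Pik3r5 (2.02, 1.15 to 3.67), and the transcription factor Nfatc2 (2.11, 1.89 to 2.35). On protein-coding transcripts alone Nfatc2 stood at 13.3 and Pik3cg at 4.43. Neither value has an interval here, and that of Nfatc2 may rest on a control library set to 3 reads. Nfatc2-208, annotated as a processed transcript with no coding sequence, held 85.9% of the reads of Nfatc2 in the sleep-deprived library and 89.6% in the control library. Vav1 had 71 and 71 reads in the sleep-deprived files and 28 and 27 in the control files. Plcg1, the phospholipase that many cell types use, was at 241 CPM in the sleep-deprived library and 171 CPM in the control library (1.40, 1.33 to 1.48).

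Of 26 genes listed as restraints of ITAM signalling, 21 were measured, 5 were called higher and 1 lower, with a median ratio of 1.45. Whether each listed gene, Lilr4b included, restrains that signalling was not tested. Inpp5d, the lipid phosphatase SHIP1 that Fcgr2b recruits, had 143 and 144 reads in the sleep-deprived files and 29 and 31 in the control files. Its ratio was 5.11 (3.43 to 7.84), and the interval did not overlap that of Fcgr2b itself. The inhibitory adaptors Dok3 and Dok2 had ratios of 3.79 (3.18 to 4.54) and 4.26 (1.55 to 14.5). Ptpn6, the phosphatase SHP-1, had a ratio of 2.18 (1.49 to 3.23). Cd72 had one of 3.40 (2.24 to 5.32) on counts and 1.81 with the length offset, where it was not called, and 41.6% of its exon bases lie in Tesk1. Lilr4b, a leukocyte immunoglobulin-like receptor, was lower, with 4.30 and 6.10 reads in the sleep-deprived files and 25.1 and 25 in the control files (0.213, 0.0636 to 0.566). These reads are fractional, and its relative Lilrb4a, named after its value was seen, had 39.3 and 38.9 reads in the sleep-deprived files and 58.9 and 52.4 in the control files. Sirpa, the receptor for the signal CD47, was at 197 CPM in the sleep-deprived library and 183 CPM in the control library (1.07, 1.02 to 1.13).

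Of 15 genes for ligands, sheddases and traffic of Trem2, 13 were measured, 2 were called higher and 1 lower, with a median ratio of 1.06. Apoe, a lipoprotein that Trem2 binds, was at 240 CPM in the sleep-deprived library and 239 CPM in the control library (1.0, 0.957 to 1.05). The ligand thus differed by less than its counting error while the receptor was called higher. As the pulldown also held RNA of astrocytes and other cells, the cells that gave the Apoe reads cannot be told. Ms4a6d, of a membrane protein family tied to Trem2, had 24 and 24 reads in the sleep-deprived files and 8 and 8 in the control files (3.19, 1.39 to 8.22), and Cd34 had a ratio of 2.37 (1.81 to 3.14). Anxa1, a protein that binds membranes of dying cells, had 4 and 4 reads in the sleep-deprived files and 19 and 19 in the control files (0.224, 0.0554 to 0.674).

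The 3 measured pathway genes with log2 ratios nearest the median of the 8 genes, over 2 libraries, were Lcp2 (2.53), Pik3ap1 (2.42) and Zap70 (2.55). Zap70, the relative of Syk in T cells, had 12 and 11 reads in the sleep-deprived files and 7 and 3 in the control files, and its interval of 0.837 to 9.25 includes 1.

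**Figure D4:**
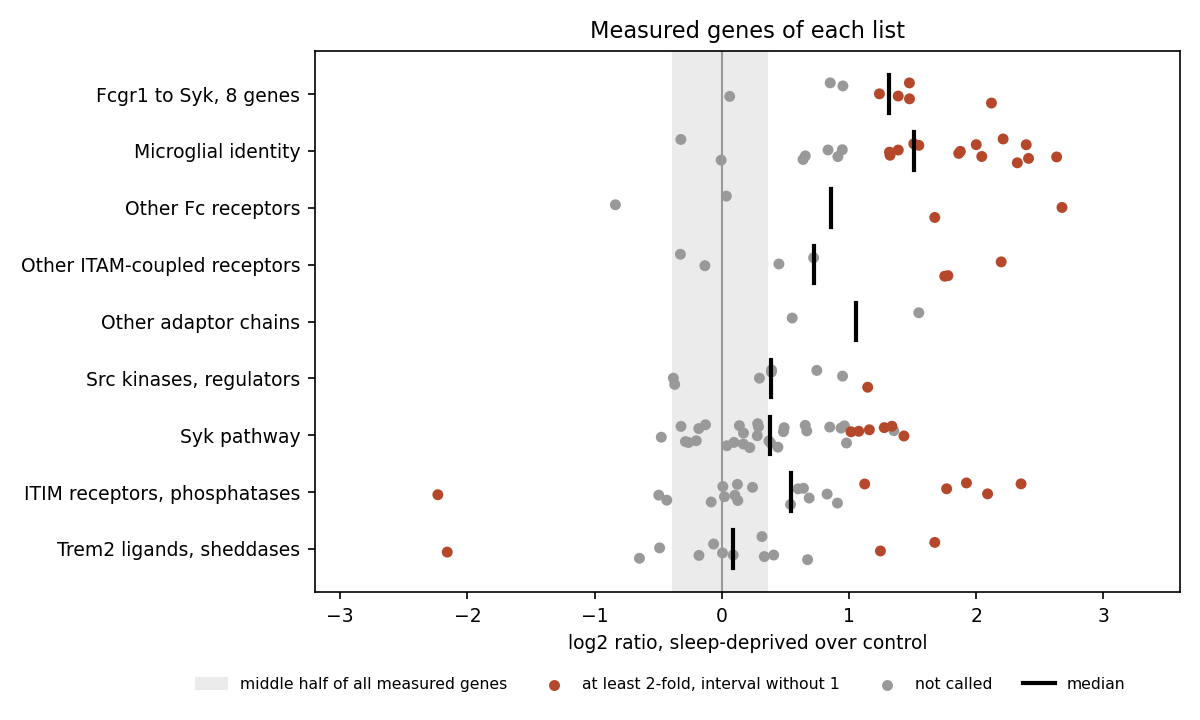
Log2 ratio of the sleep-deprived to the control library for each measured gene of the 8 genes (Fcgr1 to Syk), the microglial markers and the 7 pathway lists, 1 point per gene, with a bar at each list's median. The grey band spans the quartiles of all measured genes, −0.39 to 0.35, and coloured points were called. The 8 genes have a median of 1.31 and the 34 genes of the Syk pathway lie mostly between −0.5 and 1.5.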

How the data were processed

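For 116546 mouse transcripts the deposited files give estimated counts and TPM beside 2 lengths, the full and the effective one. Both units are the authors' own; the submitters' processing notes name Salmon, DESeq2 and mm10, with versions and annotation not given in the sources used here. Ribosome affinity purification and polyA enrichment preceded sequencing, per the labels' protocols. In the deposited files 99.2% of transcripts over 1000 bases have an effective length 250 below their length.

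Transcripts were matched without version to GENCODE M21 (99.5%) and summed per gene, which left out 0.241% to 0.270% of reads. Strand use is not given, so reads of overlapping genes cannot be told apart. Estimated counts were averaged over the files of a group, rounded, scaled by TMM in edgeR 4.0.16 (R 4.3.3) and filtered with filterByExpr at a minimum count of 10. Ratios have exact conditional (Clopper-Pearson) 95% intervals in scipy 1.17.1; a library under 3 reads was set to 3. Reads are not independent molecules, so intervals cover counting error only. The procedure was tested on simulated data. The length offset is the TPM-weighted effective length of a gene in each library.

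The design called for an edgeR quasi-likelihood test only where the files of a group differed beyond sampling noise, and they did not. Named were the 8 genes, their transcripts with at least 10 reads in a file, and per list up to 6 called genes and the most abundant uncalled gene. Cell type lists are given by their sums and counts. The 8 genes and all lists were chosen with earlier results of these data known.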

Additional observations from a re-analysis of the deposited data

How the results depend on the processing

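No paired analysis was possible because the files of a group were counted as 1 library, so the replicate block, the edgeR quasi-likelihood test and the DESeq2 Wald test were not run. With 1 library per group, the spread between mice is unknown, and low counts limit Syk, Fcgr2b and Fcgr1. DESeq2 size factors, upper-quartile scaling, library totals alone and no filter on low counts left 5 of the 8 genes called higher. Leaving out 1 file left 5 called, with ratios between 1.03 and 4.43 over the 8 genes, 19 to 21 pathway genes higher and 2 lower, and 629 to 650 genes higher and 847 to 860 lower overall. In TPM, Fcgr1 was at 5.53 and Trem2 at 3.77. There 7 of the 8 genes were called higher, and 1375 of the 14916 measured genes. These TPM counts hold before the shift of all genes, a median log2 ratio of 0.22, is taken off. With the length offset Fcgr1 was at 4.67 and Lyn at 0.887, 6 of the 8 were called higher, and 4 pathway genes were lower. On protein-coding transcripts alone Trem2 was at 3.55 and 4 of the 8 were called higher, without Fcgr1. For the length offset and for protein-coding transcripts alone, the share of all genes called is not given. The counts of the 8 genes under those settings are therefore a description.

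Per summed microglial marker, the ratios were 1.23 for Fcgr1, 2.26 for Fcgr3, 0.940 for Fcgr2b, 1.36 for Trem2, 1.45 for Fcer1g, 1.45 for Tyrobp, 0.544 for Lyn and 1.01 for Syk. Without Sparc in that sum, Fcgr3 stood at 1.30 and the other 7 lay below 1, at 0.706 for Fcgr1, 0.781 for Trem2, 0.831 for Fcer1g, 0.831 for Tyrobp, 0.540 for Fcgr2b, 0.312 for Lyn and 0.578 for Syk. Either division shifts all genes by the same factor. A 3-fold rule left 1 of the 8 genes called higher, 10 pathway genes, and 246 genes higher and 362 lower in all. A 1.5-fold rule called 30 pathway genes higher, and 1858 genes higher and 2035 lower in all. As a share of TPM, Trem2-203 held 2.08% in the sleep-deprived library and 8.21% in the control library. The causes of these differences were not tested.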

Other observations

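Like Lyn, other genes of the pathway had their reads placed on different transcripts in the 2 libraries. Of 43 genes of the 7 pathway lists with at least 100 reads in both libraries, 7 had a transcript whose share of the gene's reads differed by over 25 percentage points, a limit chosen after the values were seen. That is 16.3% of them, against 10.9% of all 10409 genes with as many reads. In 4 of these the difference was over 50 points, or 9.30%, against 1.99% of all such genes. Grb2-201, a coding form of the adaptor that links receptors to Ras, took 83.5% in the sleep-deprived library and 13.7% in the control library. Its file values were 71.6% and 95.5% in the sleep-deprived files and 13.7% and 13.6% in the control files. Adam17-203, annotated as nonsense-mediated decay, of a protease that sheds Trem2, took 17.3% in the sleep-deprived library and 85.1% in the control library. Src-204, a coding form of Src, took 72.0% in the sleep-deprived library and 10.8% in the control library, with 0% and 21.7% in the control files. Pik3cd-214, of a PI3-kinase subunit, took 46.0% in the sleep-deprived library and 99.8% in the control library. The gaps between files of 1 group show how far such estimates move for a library that agrees within sampling noise over genes.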
